A study of Homo sapiens with 6 samples.

Results

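The clustered histone genes are the 69 protein-coding genes of the RefSeq GRCh38 table whose symbols name a replication-dependent histone: H1-1 to H1-6 and the H2AC, H2BC, H3C and H4C genes. They are 69 of 20037 protein-coding genes on chromosomes 1 to 22, X and Y. The rule reads the symbol alone and uses no peak value. By class they comprise 6 H1, 17 H2A, 18 H2B, 13 H3 and 15 H4 genes, and by position 55 genes on chromosome 6, 13 on chromosome 1 and 1, H4C16, on chromosome 12. CUT&RUN uses an antibody to direct a nuclease to a chromatin protein and sequences the DNA that is released. Here it was applied to MYT1L, a neuronal transcription factor of the zinc-finger type, in unmodified (WT) cells of H1 hESC, a human embryonic stem cell line, at D30 (day 30). The series text describes cortical interneurons grown from this line, but the cell type listed for each sample is embryonic stem cells, from which they were made. Peak lists hold no expression values, so the cell type could not be checked against markers. An anti-MYT1L antibody was used for 4 libraries, and unspecific IgG, the negative control, for the other 2. All 6 came from this 1 line, and nothing in the labels says that the replicates were separate differentiations.

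Replication-dependent histone genes are short, mostly intronless genes that are switched on together in S phase to package newly made DNA. Their mRNAs end in a stem-loop bound by SLBP instead of a poly(A) tail, and transcription is organised around NPAT in a nuclear structure called the histone locus body. H2A, H2B, H3 and H4 form the core of the nucleosome and H1 binds the linker DNA between nucleosomes. Many H2A and H2B genes lie head to head and share the stretch between their starts. Neurons no longer divide, and in non-dividing cells a variant H3 protein that is made outside S phase from genes such as H3-3A takes the place of replication-dependent H3 over time.

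The promoters of 6 members are shown because the results below turn on them. H3C13 and H2AC8 stood beside a peak in all 4 MYT1L libraries, H4C14 has an identical promoter copy, H1-2 is the linker histone gene with the highest mean fold, and H1-6 and H2BC1, both known as testis histone genes, had no peak. Each sequence is the 250 bases before the gene start from the RefSeq GRCh38 promoter table, read 5′ to 3′ on the gene's strand. They lie at chr1:149813694-149813943 (minus strand, H3C13), chr6:26216671-26216920 (plus, H2AC8), chr1:149832407-149832656 (plus, H4C14), chr6:26056471-26056720 (minus, H1-2), chr6:26108136-26108385 (minus, H1-6) and chr6:25726527-25726776 (plus, H2BC1). Capitals mark matches on either strand to AAAGTT or AAGTTT (the core recognised by the MYT1 family), TATAAA (the TATA box), CCAAT, ATTTGCAT (the octamer bound by POU2F1) and GGTCCG (an element of H4 promoters). The H2AC8 stretch also holds the start of H2BC8, which is transcribed from the opposite strand.
H3C13: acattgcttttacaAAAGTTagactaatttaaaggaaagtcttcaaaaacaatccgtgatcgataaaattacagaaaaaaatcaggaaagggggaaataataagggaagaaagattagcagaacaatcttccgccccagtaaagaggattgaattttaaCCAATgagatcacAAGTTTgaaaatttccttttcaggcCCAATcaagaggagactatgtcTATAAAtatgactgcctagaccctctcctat
H2AC8: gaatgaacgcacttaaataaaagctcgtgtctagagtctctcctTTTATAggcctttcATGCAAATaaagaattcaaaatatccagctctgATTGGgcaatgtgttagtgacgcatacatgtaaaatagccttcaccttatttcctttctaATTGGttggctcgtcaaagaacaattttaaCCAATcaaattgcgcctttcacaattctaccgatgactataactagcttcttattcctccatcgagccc
H4C14: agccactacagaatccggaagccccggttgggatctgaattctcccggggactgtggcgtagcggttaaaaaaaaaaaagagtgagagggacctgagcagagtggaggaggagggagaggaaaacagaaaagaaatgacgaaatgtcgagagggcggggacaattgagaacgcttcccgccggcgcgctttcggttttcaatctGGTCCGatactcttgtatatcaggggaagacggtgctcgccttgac
H1-2: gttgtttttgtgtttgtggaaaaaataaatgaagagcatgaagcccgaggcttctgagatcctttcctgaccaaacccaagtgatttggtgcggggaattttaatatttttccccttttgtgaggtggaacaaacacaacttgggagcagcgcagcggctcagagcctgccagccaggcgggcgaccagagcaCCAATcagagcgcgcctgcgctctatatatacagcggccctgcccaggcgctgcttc
H1-6: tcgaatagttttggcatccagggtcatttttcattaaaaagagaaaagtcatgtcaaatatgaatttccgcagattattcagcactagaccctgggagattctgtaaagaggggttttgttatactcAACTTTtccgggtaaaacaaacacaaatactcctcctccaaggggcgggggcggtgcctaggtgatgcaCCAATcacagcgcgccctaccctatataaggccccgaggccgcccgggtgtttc
H2BC1: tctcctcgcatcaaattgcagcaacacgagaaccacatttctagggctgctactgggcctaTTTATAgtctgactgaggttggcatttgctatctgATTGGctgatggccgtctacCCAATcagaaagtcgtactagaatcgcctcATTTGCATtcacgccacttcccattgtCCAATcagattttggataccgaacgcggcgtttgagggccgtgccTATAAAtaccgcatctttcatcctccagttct

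A member was counted in a library where a deposited peak shared at least 1 bp with the gene extended by 1 kb on both sides. MYT1L replicates 1 to 4 had such a peak at 42, 25, 11 and 60 of the 69 members, which is 60.9%, 36.2%, 15.9% and 87.0%. The mean was 34.5 ± 21.2 members (SD, n = 4 libraries). The same window around all 20037 protein-coding genes held a peak in 63.3%, 39.3%, 53.1% and 73.9% of genes. Replicates 1 and 2 therefore lay close to the share of all genes, replicate 3 lay far below it and replicate 4 above it. Neither IgG library had a peak at any member, beside 1.4% and 2.65% of all genes in IgG replicates 1 and 2 and 3.76% in either.

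The members are unusually short, with a median length of 494 bp against 24115 bp over all protein-coding genes, so a gene window of the usual kind holds less sequence here. Measured from the gene start instead, the share of members with a peak summit within 1 kb was 59.4%, 31.2%, 14.1% and 84.4% in replicates 1 to 4, over the 64 members whose start the promoter table gives. Over the 15843 protein-coding genes with a start it was 53.3%, 32.3%, 46% and 68.2%. Measured either way, the members lay far below all genes in replicate 3 and above them in replicate 4. Among the 467 other protein-coding genes of at most 1 kb, which include many genes of tissue-restricted families, 15.4%, 8.35%, 9.85% and 16.9% had a peak, and in the IgG libraries 1.28% and 0.857%.

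**Figure D1:**
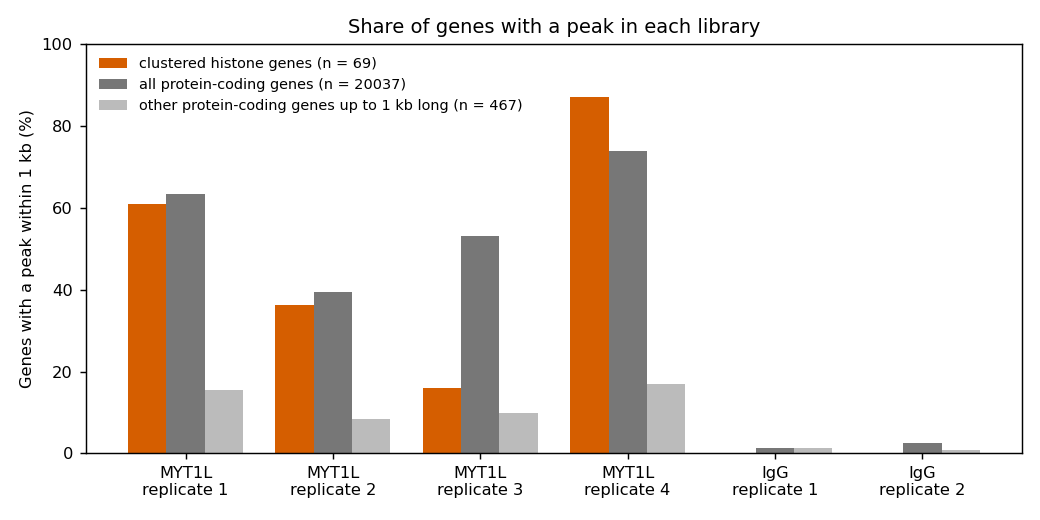
Share of genes (%, vertical axis) with a peak within 1 kb in each of the 6 libraries (horizontal axis), for the 69 clustered histone genes, all protein-coding genes and the short protein-coding genes that are no members. The members' share runs from 15.9% in MYT1L replicate 3 to 87.0% in replicate 4 and is 0 in both IgG libraries.

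The libraries held 27926, 12310, 18966 and 30086 peaks for MYT1L replicates 1 to 4 and 976 and 998 peaks for IgG. Read totals were not used here, so relative depth was estimated from the fold and p of each peak: taking replicate 2, the shallowest MYT1L library, as 1, it was 2.66 in replicate 1, 2.34 in replicate 3 and 2.12 in replicate 4, and 0.689 and 0.422 in the IgG libraries. Replicate 3 was thus deeper than replicate 2 and had fewer members with a peak. With every MYT1L library reduced to the depth of replicate 2, the expected number of members with a peak was 23.9, 6.04 and 56.9 in replicates 1, 3 and 4, beside the 25 observed in replicate 2. Over all protein-coding genes the corresponding shares were 34.0%, 30.9% and 64.1%. Each reduction also required a peak to reach the lowest −log10 p of the target list. That was 5.54 and 5.58 in IgG replicates 1 and 2, 4.73 in MYT1L replicate 2 and 4.24 to 4.50 in the other MYT1L lists. Reduced to IgG replicate 1, the 4 MYT1L libraries were expected to keep a peak at 11, 17, 2.30 and 44.6 members. Reduced to IgG replicate 2, they were expected to keep one at 5.09, 7.29, 0.875 and 29.4 members, against 0 observed in each IgG library. For replicate 3 a difference from IgG is therefore not detectable at the depth and lowest −log10 p of the IgG libraries. Reduced to IgG replicate 1, the expected shares were 15.96%, 24.63%, 3.34% and 64.62% of members, beside 15.76%, 26.99%, 14.31% and 49.27% of all genes. For IgG replicate 2 they were 7.38%, 10.56%, 1.27% and 42.59%, beside 7.97%, 14.78%, 6.995% and 32.81%. The members lay close to all genes in replicate 1, below them in replicates 2 and 3 and above them in replicate 4. What replicates 1 and 2 kept was thus not particular to the members. Why replicate 3 was low at these genes was not tested.

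Of the 69 members, 26 (37.7%) had a peak in 3 or 4 of the MYT1L libraries, beside 52.1% of all protein-coding genes and 9.21% of the other short genes. With genes taken off that had an IgG peak the values were 26 members and 48.6% of all genes. A peak in all 4 libraries was found at 5 members, beside 29.6% of all genes, and 7 members had none in any, beside 19.6%. The remaining members had a peak in 1 library (17 members) or 2 (19 members). Without replicate 3, 44 members (63.8%, beside 62.8% of all genes) had a peak in at least 2 of the other libraries, so the members no longer lay below all genes. Without replicate 2 the count was 43 members (62.3%, beside 65.6%). With the authors' peaks limited to a −log10 q of at least 5, 9 members were reached in at least 3 libraries, beside 31.4% of all genes, and with each list limited to its 12310 top peaks 17 members (24.6%), beside 36.3%. A peak in at least 2 libraries was found at 45 members (65.2%), beside 67.6%. With 5 kb on both sides 42 members (60.9%) had a peak in at least 3 libraries, beside 56.8% of all genes. At this distance the members thus lay above all genes and not below. The members lie close together, so the wider windows also take in peaks counted at neighbouring members. How much of the rise comes from such peaks was not tested. These are counts over genes chosen by name, many of which share a peak with a neighbour, and no test was made of them.

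The combinations of libraries were uneven. A peak in replicates 1, 2 and 4 and not in 3 was seen at 17 members (24.6%), beside 5.16% of all genes. These were H4C14, H4C15, H2AC19, H2BC21, H2AC20, H2AC21, H2AC25 and H2BC26 on chromosome 1, H4C16 on chromosome 12, and H3C1, H4C1, H2BC11, H2AC11, H2BC12, H4C9, H2AC12 and H4C12 on chromosome 6. Replicates 1 and 4 alone shared 16 members (23.2%, beside 8.83%): H3C14, H2AC18, H3C2, H2AC4, H4C3, H2BC4, H2AC6, H2BC5, H2BC6, H3C7, H2BC13, H2AC13, H4C11, H2AC15, H2BC15 and H2AC16. Replicate 4 alone had a peak at 15 (21.7%, beside 7.78%): H3C15, H4C2, H4C4, H3C4, H2AC7, H2BC7, H2BC9, H3C8, H2BC10, H2AC14, H2BC14, H3C11, H4C13, H2AC17 and H2BC17. Replicate 3 was the only library with a peak at H4C7, and replicate 1 the only one at H3C3. H4C5 and H4C8 had one in replicates 2 and 4. H1-2, H1-3 and H3C10 had one in replicates 1, 3 and 4, H1-4 in 3 and 4, and H3C12 in 2, 3 and 4.

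**Figure D2:**
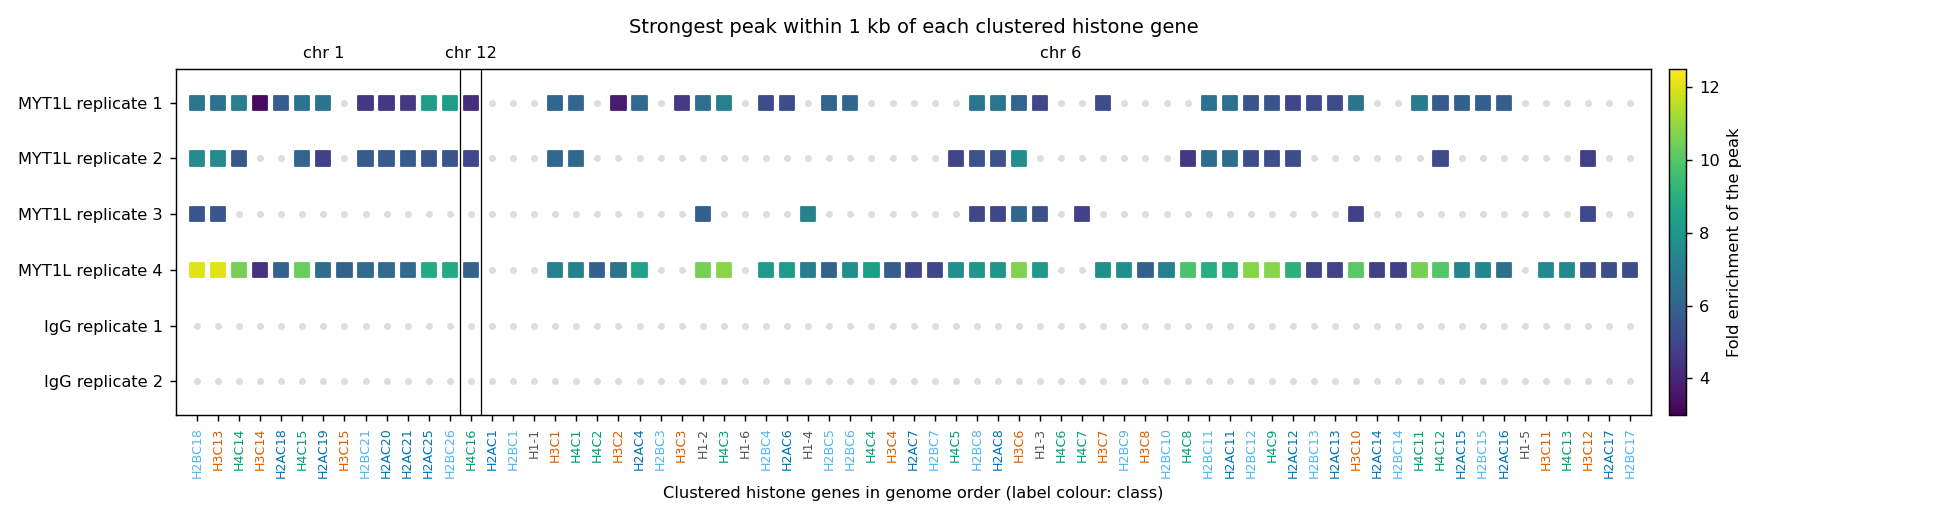
Fold enrichment of the strongest peak within 1 kb (colour scale, the authors' value per peak) for each of the 69 members (one square per member and library), arranged by chromosome in genome order. Small grey dots are members without a peak in that library. Both IgG rows hold grey dots alone, and replicate 3 has 11 coloured squares against 60 in replicate 4.

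The 5 members with a peak in all 4 libraries lay in 3 places and encode H2A, H2B and H3 proteins. H3C13 had folds of 6.59, 7.51, 5.46 and 12.05 over background in replicates 1 to 4 (7.90 ± 2.89, SD, n = 4), from pileups of 20, 11, 11 and 53 fragments at the summit. All 4 libraries were above 5, and replicate 4 stood highest. Its neighbour H2BC18, whose annotated gene spans 29682 bp, had 6.74, 7.51, 5.46 and 12.05 (7.94 ± 2.87) and so shares the strongest peak in 3 of the 4 libraries. The region common to the 4 libraries at this pair was chr1:149813126-149813690, and a further such region, chr1:149792654-149793392, lay within H2BC18. The strongest H2BC18 peak of replicate 1 lay in this further region, so the H2BC18 mean joins separate sites. A region just inside the H2BC18 start, chr1:149811924-149812352, held a peak from replicate 4 alone. H3C6 on chromosome 6 had folds of 6.07, 7.64, 6.14 and 10.69 (7.63 ± 2.16) in the region chr6:26225110-26225575. H2BC8 and H2AC8 share their strongest peak in each library, with folds of 6.72, 5.41, 5.0 and 7.95 (6.27 ± 1.34) and pileups of 17, 8, 10 and 30, at chr6:26216295-26216632. That region ends before the start of H2BC8 at position 26216688 and lies on its transcribed side. A second region, chr6:26216975-26217436, with peaks from replicates 2, 3 and 4, lies just inside H2AC8.

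Peaks at members were of ordinary strength. The median fold of the distinct peaks at members was 6.01, 5.41, 5.31 and 6.46 in replicates 1 to 4, over 35, 19, 11 and 65 peaks, beside 4.92, 5.56, 5.17 and 5.55 over each whole list. The range was 3.20 to 8.25, 4.55 to 7.64, 4.63 to 7.26 and 3.12 to 12.05. Their median percentile within the list was 78.2, 45.2, 53.9 and 63.4, a mean of 60.2 ± 14.1 (SD, n = 4). Replicate 1 ranked them highest and replicate 2 just under the middle of its list. Median widths were 359, 290, 268 and 405 bp, close to 349, 296, 327 and 412 bp for all peaks. The median summit pileup was 16, 9, 11 and 27 fragments, so most of these peaks rest on few fragments.

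Joined across libraries, the peaks at members formed 64 regions of median width 432 bp. A peak from all 4 libraries was present in 4 regions, from 3 libraries in 15, from 2 in 20 and from 1 in 25, of which 22 were from replicate 4. No region overlapped an IgG peak, and 33 lay within 1 kb of 2 or more members. A region of at least 3 libraries lay near 26 members (beside 46.9% of all genes), of which 25 are among the 26 counted by gene window. H4C16 was lost, because neither of its 2 regions held more than 2 libraries, and H3C15 was gained through a joined region of 1478 bp that reaches into its window.

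H1 genes encode the linker histones. MYT1L replicates 1 to 4 had a peak at 2, 0, 3 and 3 of the 6 (33.3% ± 23.6 on average, SD, n = 4). H1-2 had folds of 6.39, 5.85 and 10.51 in replicates 1, 3 and 4 and no peak in replicate 2. H1-3 had 5.04, 5.36 and 8.15 in the same libraries, and H1-4 had 7.26 and 7.02 in replicates 3 and 4. No MYT1L library had a peak within 1 kb of H1-1, of H1-5 or of H1-6, the testis linker histone. The promoters of H1-2 and H1-6 printed above both hold CCAAT close to the start, and that of H1-6 also holds a MYT1 core on the opposite strand. With 5 kb on both sides the mean share of H1 genes with a peak was 66.7%, against 33.3% with 1 kb. The wider windows of H1-1, H1-5 and H1-6 take in regions that lie at H3C1, H2AC16 and H4C3. The rise therefore includes peaks at neighbouring core histone genes.

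The mean shares of the 4 core histone classes lay between 48.6% and 54.4%. H2A genes had a peak at 13, 7, 1 and 16 of 17 (54.4% ± 39.1), and H2B genes at 11, 6, 2 and 16 of 18 (48.6% ± 33.8). H3 genes had one at 8, 4, 4 and 12 of 13 (53.8% ± 29.5), and H4 genes at 8, 8, 1 and 13 of 15 (50% ± 32.9). In at least 3 libraries the counts were 2 of 6 H1, 7 of 17 H2A, 6 of 18 H2B, 5 of 13 H3 and 6 of 15 H4 genes, or 33.3%, 41.2%, 33.3%, 38.5% and 40%. Within libraries, H1 had the lowest share of the 5 classes in replicates 1, 2 and 4 (33.3%, 0% and 50%) and the highest in replicate 3 (50%, beside 5.88% to 30.8% in the core classes). With 6 H1 genes, each gene moves that share by a large step. In replicate 3 the 11 members with a peak were 3 H1, 1 H2A, 2 H2B, 4 H3 and 1 H4 genes, so H1 and H3 gave 7 of them.

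Apart from H1, the members without a peak in any MYT1L library were H2AC1 and H2BC1, H2BC3, and H4C6. H2AC1 and H2BC1 are the divergent pair that encodes the testis histones TH2A and TH2B. A missing entry says only that no peak passed the authors' threshold there, not that signal was absent.

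The chromosome 1 genes had a peak more often than the chromosome 6 genes in 3 of the 4 MYT1L libraries. On chromosome 6 the counts were 29, 14, 9 and 46 of 55 (52.7%, 25.5%, 16.4% and 83.6%), and on chromosome 1 they were 12, 10, 2 and 13 of 13 (92.3%, 76.9%, 15.4% and 100%). The difference, chromosome 6 minus chromosome 1, was −39.6, −51.5, 0.979 and −16.4 percentage points, with a mean of −26.6 ± 23.5 (SD, n = 4). In replicate 3 the shares were nearly equal. In at least 3 libraries 15 of 55 chromosome 6 genes (27.3%) and 10 of 13 chromosome 1 genes (76.9%) had a peak. By class, the chromosome 1 share was the higher one for H2A (3 of 12 on chromosome 6 against 4 of 5 on chromosome 1), H2B (3 of 15 against 3 of 3) and H4 (3 of 12 against 2 of 2). For H3 the count in at least 3 libraries was 4 of 10 against 1 of 3, while the mean share over the 4 libraries was 52.5% against 58.3%, and 2 of the 3 chromosome 1 H3 genes, H3C14 and H3C15, are near-identical copies.

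**Figure D3:**
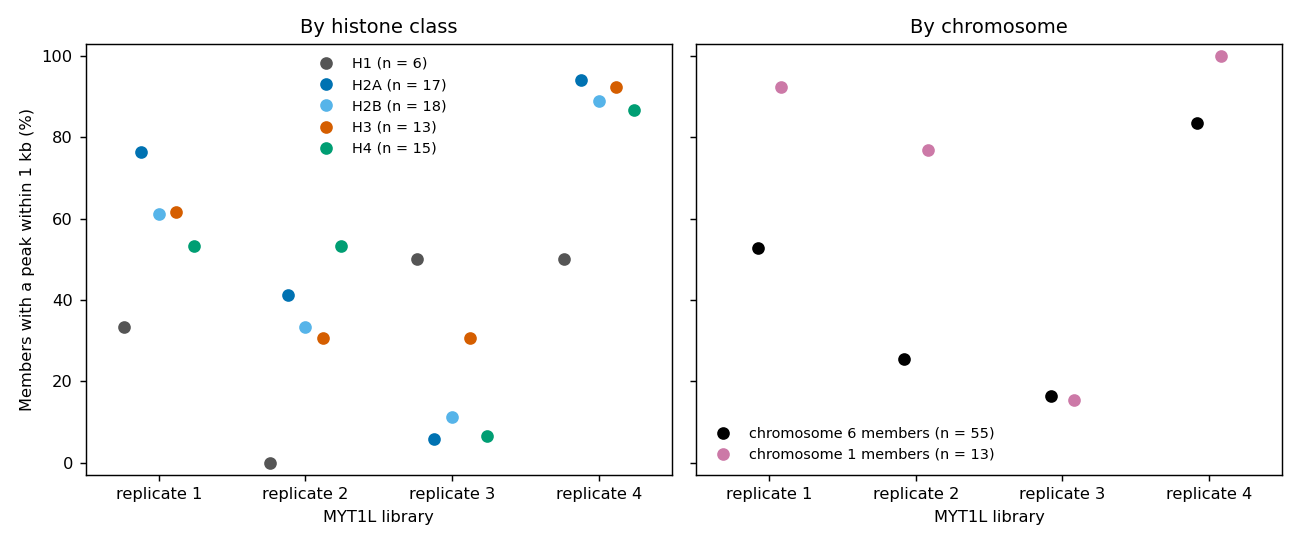
Share of members with a peak within 1 kb (%, vertical axis) in each of the 4 MYT1L libraries (horizontal axis), by histone class on the left and by chromosome on the right, with one point per library. The 4 core classes span 53.3% to 76.5% in replicate 1 and 86.7% to 94.1% in replicate 4, and chromosome 1 lies above chromosome 6 in replicates 1, 2 and 4 and beside it in replicate 3.

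Neighbouring genes share peaks and are not independent, so overlapping gene windows were also merged into 39 loci, 33 on chromosome 6, 5 on chromosome 1 and 1 on chromosome 12. Of these, 25, 15, 9 and 33 had a peak in replicates 1 to 4. The chromosome 6 loci had 19, 9, 8 and 27 of 33, and the chromosome 1 loci 5, 5, 1 and 5 of 5. The mean difference was −32.3 points, and the 5 chromosome 1 loci all reached 3 libraries, as did 11 of 33 on chromosome 6. With only 5 loci on chromosome 1, its share moves by a large step with each locus.

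Several chromosome 1 genes have a near-identical copy. Over the 300-base promoters, H4C14 and H4C15 were identical, H2AC18 and H2AC19 were 99.3% identical, and H3C14 and H3C15 97.3%; on chromosome 6 H4C11 and H4C12 were 98.3% identical. How reads that match both copies were placed is not given in the sources used here, so values of these 8 genes are uncertain between copies. H4C14 had folds of 6.97, 5.58 and 10.52 in replicates 1, 2 and 4, and H4C15, whose annotated gene also spans H2AC19 and H3C15, had 6.64, 6.02 and 10.33. The replicate 1 value of H4C15 belongs to the peak at H2AC19, and those of replicates 2 and 4 to peaks around the H4C15 start. Replicate 1 had another peak around that start, so its 6.64 does not compare the copies. H2AC18 had 5.77 and 6.0 in replicates 1 and 4, and H2AC19 had 6.64, 4.81 and 6.33 in replicates 1, 2 and 4. H3C14 had 3.26 and 4.37 in replicates 1 and 4, and H3C15 had 5.94 in replicate 4 only. These values belong to peaks outside H3C14 and H3C15, in regions that also lie within 1 kb of H2AC18 or H2AC19. Weaker peaks lay over H3C14 in replicates 1 and 4 (chr1:149840613-149841080) and over H3C15 in replicate 4 (chr1:149852725-149853107). The H3C14 and H3C15 values therefore do not compare the copies. Without the 8 genes the mean difference between chromosomes was −38.3 points and 22 of 61 members had a peak in at least 3 libraries.

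The other genes outside chromosome 6 have no such copy among the members. H2BC21, H2AC20 and H2AC21, which lie side by side, share their strongest peaks, with folds of 4.56, 5.68 and 6.26 in replicates 1, 2 and 4. The replicate 1 peak lay at chr1:149887661-149887950 and the others at chr1:149886292-149886639, so these folds join separate sites. H2AC25 and H2BC26, a divergent pair far from the main chromosome 1 cluster, share their strongest peaks, with folds of 8.25, 5.51 and 8.76 in replicates 1, 2 and 4. H4C16, the lone member on chromosome 12, had 4.24, 5.05 and 5.99 in these libraries. Its folds also join separate sites, chr12:14769849-14770350 in replicates 1 and 4 and chr12:14770820-14771047 in replicate 2. None of these 6 genes had a peak in replicate 3.

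Peak summits at members lay just inside the genes. Of the distinct peaks, 32, 17, 9 and 59 had a summit within 1 kb of a member's start in replicates 1 to 4. The median position was 180.5, 147, 155 and 163 bp downstream of the start, a mean of 161 ± 14.3 bp (SD, n = 4), and 90.6%, 94.1%, 100% and 93.2% of the summits lay downstream. Over all summits within 1 kb of a protein-coding start, the medians were 65, 35, 8 and 96 bp (51.0 ± 38.0) and 62.1%, 56.9%, 51.6% and 68.2% lay downstream. The members' median was the more downstream one in each of the 4 libraries. Because the members are short, 25 of 35, 13 of 19, 9 of 11 and 50 of 65 summits fell inside the body of a member of at most 1 kb. Starts are those of the RefSeq table, and no value here tells whether other starts were used in these cells. For 5 members (H4C1, H4C3, H2AC12, H3C11 and H3C12) the promoter table gives no start. Summits at these members were left out or measured from the start of a neighbouring member.

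**Figure D4:**
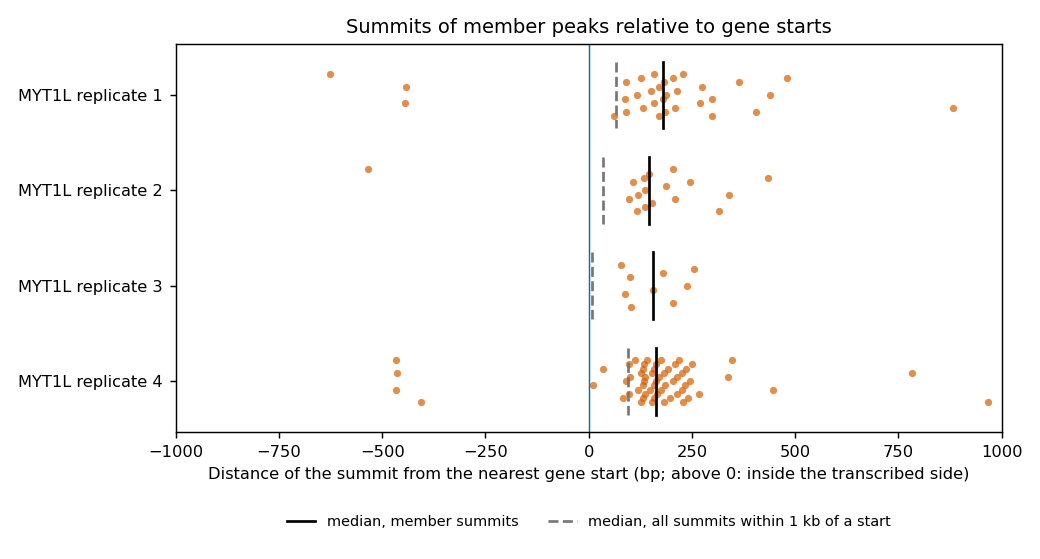
Distance from the nearest member start to the summit of each member peak (horizontal axis, bp, positive on the transcribed side) in the 4 MYT1L libraries (rows). Black lines are the median of the members and grey dashed lines the median over all summits within 1 kb of a protein-coding start; the members' medians sit at 147 to 180.5 bp, to the right of the grey lines at 8 to 96 bp.

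The divergent H2A and H2B pairs show the same displacement. There were 11 such pairs, with 194 to 248 bp (median 236) between the 2 starts. A peak lay within 1 kb of the starts in 7, 4, 1 and 10 pairs in replicates 1 to 4, and it overlapped the gap in 3, 2, 0 and 3. The summit lay in the gap in 0 pairs in all 4 libraries. At the 136 other head-to-head protein-coding pairs with gaps of the same range, a peak was near 115, 75, 96 and 133 pairs, and a summit lay in the gap in 29.6%, 34.7%, 60.4% and 19.5% of those. In at least 3 libraries a peak was present at 4 histone pairs: H2BC21 with H2AC20, H2AC25 with H2BC26, H2BC8 with H2AC8, and H2BC11 with H2AC11. The last pair had folds of 6.52, 6.33 and 8.93 in replicates 1, 2 and 4. The testis pair H2AC1 and H2BC1, of which the H2BC1 sequence is printed above, was the only pair without any peak.

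Motif content was compared over the 300 bases around the start, 250 before and 50 after, on both strands. A MYT1 core, AAAGTT or AAGTTT, was present in 15 of 64 member promoters (23.4%) and in 21.3% of the 15843 protein-coding promoters. By class it was found in 1 of 6 H1, 1 of 16 H2A, 2 of 18 H2B, 7 of 11 H3 and 4 of 13 H4 promoters, so H3 held 7 of the 15. The windows of paired H2A and H2B genes overlap, so the same site can count for both, here and for the other motifs below. The pair H2AC15 and H2BC15 both held a core, as did the near-identical copies H3C14 and H3C15. The H3C13 stretch printed above holds both forms of it. Among members with a peak in at least 3 libraries 3 of 23 (13%) held a core, among those in 1 or 2 libraries 10 of 34 (29.4%), and among those in none 2 of 7 (28.6%). The members with the most libraries did not hold the core more often. A window of this length cannot show cores that lie under the summits farther downstream.

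The promoters otherwise carried the elements known for histone genes. TATAAA was found in 43 of 64 (67.2%) against 12.4% of all promoters, CCAAT in 54 (84.4%) against 42.1%, and the octamer ATTTGCAT in 26 (40.6%) against 2.22%. The octamer stood in 11 of 16 H2A and 14 of 18 H2B promoters, 1 of 11 H3 promoters and in no H1 or H4 promoter. The H3 case is an annotated start of H3C4 that is also the start of H2AC7, and the other H3C4 start lacked the octamer. GGTCCG was found in 12 of 13 H4 promoters, as in the H4C14 sequence, and in 15 members in all (23.4%) against 18.0%. CCAAT was in all H1, H2A, H2B and H3 promoters tested and in 3 of 13 H4 promoters. Base composition differed as well: the bases before the start were 42.6% G and C, and the 50 after it 48.0%, beside 62.4% and 64.0% over all promoters. Whether base composition bears on the peak counts was not tested.

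Genes that act on the clusters from elsewhere were compared in the same way. Of 14 regulators of histone gene transcription and mRNA processing, 12, 8, 7 and 14 had a peak in replicates 1 to 4, and 9 (64.3%) had one in at least 3 libraries, beside 52.1% of all genes. NPAT, the organiser of histone locus bodies, had folds of 6.67, 6.78, 7.31 and 11.62 (8.10 ± 2.37, SD, n = 4). HINFP, a factor of H4 promoters, had 8.09, 6.62, 7.25 and 11.80 (8.44 ± 2.32). SYMPK and CPSF3, of the 3′ end cleavage complex, had means of 7.04 ± 2.32 and 6.95 ± 1.52, and CASP8AP2, a partner of NPAT, 6.01 ± 1.64. SLBP, the stem-loop binding protein, had 7.34 ± 1.94 over the 4 libraries but also a peak of fold 5.71 in IgG replicate 2. In replicate 3 the 7 of 14 with a peak stand beside 53.1% of all genes.

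Of 12 histone variants encoded outside the clusters, 8, 4, 8 and 10 had a peak, and 7 (58.3%) had one in at least 3 libraries, close to the 52.1% of all genes. Peaks in all 4 libraries stood at H2AZ2 (9.37 ± 3.60), H2AX (6.45 ± 2.60), H3-3A (5.91 ± 1.08) and MACROH2A2 (5.88 ± 1.13). H3-3A, H2AZ2 and MACROH2A2 encode histones that are made outside S phase too, and H2AX a variant known from DNA repair. H2AJ and H3-5 had none. Among the 19 other protein-coding genes that lie within the chromosome 6 cluster, 7, 4, 8 and 13 had a peak (36.8%, 21.1%, 42.1% and 68.4%). In replicate 3 that is 42.1% of the neighbours against 16.4% of the 55 histone genes in the same stretch, while in replicate 4 it is 68.4% against 83.6%. In at least 3 libraries 6 of the 19 (31.6%) had a peak, beside 27.3% of the chromosome 6 histone genes.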

How the data were processed

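MYT1L CUT&RUN was measured in 4 libraries and IgG in 2. Per the submitters' processing notes MACS2 and hg38 were used; the aligner, caller version, threshold and control are not given in the sources used here. The deposited peak lists, 1 per library, were used as they stand, on chromosomes 1 to 22, X and Y. Each peak has the authors' fold over background (a ratio), the authors' −log10 p and −log10 q (deposited p-value and q-value), a deposited score (10 times the −log10 q) and the deposited summit offset. These are the authors' values per peak and were used only within a list. The lowest −log10 q was 2.00 to 2.01 in each list. Peak names in the MYT1L lists carry sample numbers other than the titles, which were followed.

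Genes come from the RefSeq GRCh38.p14 table, and starts and 300-base promoters from its promoter table, which has 64 of the 69 members and not H4C1, H4C3, H2AC12, H3C11 and H3C12. Relative depth was estimated from MACS2's formulas, fold = (pileup + 1) / (background + 1) with a Poisson p. Whole pileups gave back the deposited p in 100% of peaks with a −log10 p up to 200, within 0.002. Pileups were reduced binomially to the depth of a target library, and a peak was kept where it reached the lowest −log10 p of that library's list. Window counts and pileups were tested on simulated data. Python 3.11.15, numpy 2.4.6, pandas 2.3.3 and scipy 1.17.1 were used, and edlib 1.3.9.post1 for promoter identity.

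No test was made: the members are chosen by name, and the 15 splits of 6 libraries into 4 and 2 allow no two-sided permutation p below 0.133. The members, lists and named genes were chosen with earlier results of these data known. Named in full were members with peaks in all 4 MYT1L libraries (up to 10), with an IgG peak, or with none; all H1 members; all members outside chromosome 6; and regulators or variants with peaks in all 4 and no IgG peak, or with none. Other members were named after their values were seen, to account for every member.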

Additional observations from a re-analysis of the deposited data

Results flagged for a closer look

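Over 27 sets of 4 MYT1L values, 2 had a library far from the others by Dixon's criterion, and chance flags about 1 such set in 20. At NPAT, the organiser of histone locus bodies, the fold in MYT1L replicate 4 was 11.6, and at H2AX, a histone variant known from DNA repair, it was 10.3; the other 3 libraries lay close together below. Replicate 4 also had the most members with a peak.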

How the results depend on the processing

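No paired analysis was possible because no test was made of MYT1L against IgG. The chromosomes were compared within each library. The 26 members with a peak in at least 3 MYT1L libraries, and the same count with no IgG peak, became 9 with a −log10 q of at least 5, 17 with each list cut to its top 12310 peaks, 42 with 5 kb on both sides (where the members' share lies above that of all genes), 45 in at least 2 libraries and 5 in all 4. Leaving out 1 MYT1L library, with a peak required in at least 2 of the others, gave 26 to 44 members. The count was 43 without replicate 2 and 44 without replicate 3. These counts rest on a looser rule than the 26, and at least 2 of all 4 libraries already gave 45. The H1 mean of 33.3% became 66.7% with 5 kb on both sides. Both values at 5 kb rest on windows that also take in peaks at neighbouring members. The difference of 34.5 members between MYT1L and IgG became 10.7 at the depth and lowest −log10 p of IgG replicate 2. The chromosome difference kept its direction in the 12 alternatives that could change it (leaving out an IgG library cannot), and was −35.8 to −18.3 points with 1 library left out and −13.6 with a −log10 q of at least 5. Reduction of depth, meeting in 1 region, loci and leaving out near-identical copies were chosen after seeing the data. Low pileups limit what replicate 2 and the IgG libraries can show.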
